A study of Mus musculus with 15 samples.

Results

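Hmgcs1 encodes the cytosolic HMG-CoA synthase, the enzyme that joins acetyl-CoA and acetoacetyl-CoA into HMG-CoA at the entry of the mevalonate pathway. HMG-CoA reductase then converts HMG-CoA into mevalonate, from which cells make cholesterol and isoprenoids. Transcription of Hmgcs1 is controlled by the membrane-bound factor SREBP2, which is released to the nucleus when membrane cholesterol is low. The liver is a major site of this pathway. By its RefSeq accession the gene was matched to 1 probe, out of 59709 noncontrol probes and 112 genes that could be given a symbol. Only 123 probes carried such an accession, so whether others also measure Hmgcs1 is not known.

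The samples were livers of the inbred mouse strain C57BL/6 at 5 stages, with 3 arrays for each stage. The fetal stages were E12.5, then E14.5, then E17.5 (days of gestation), followed by a stage labelled neonatal, with no age in days, and by adults of 8 weeks. No genotype, treatment or diet is named in the labels, which also leave unsaid if each array had an animal of its own. The p-values therefore measure only the spread between these arrays, which may be technical. Whole liver RNA was hybridised in 1 colour, so a lower signal from fewer cells of a type and one from less RNA per cell cannot be told apart. The embryonic liver is also a blood-forming organ, and this was not resolved here either: among the array's symbols, 0 of 11 hepatocyte markers and 1 of 12 markers of red cell and blood precursors were found, so the tissue label could not be checked against defining markers. That 1 marker, Tfrc, which imports iron into red cell precursors, averaged 8.89, 8.86, 8.58, 8.16 and 5.50 on the normalized log2 scale from E12.5 to adult liver, and its part in the values of Hmgcs1 was not tested.

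The window before the start of Hmgcs1 is shown because SREBP2 acts on the promoter of this gene. It is the 250 bases before the annotated start, at chr13:119690101-119690350 on the plus strand of GRCm38.p6, taken from RefSeq by gene symbol. The array's own probe grid is on mm9, and the position is not carried over to it. Capitals mark the 8-letter core of the sterol regulatory element described in the human low-density lipoprotein receptor promoter, CACCCCAC, and CCAAT boxes, which lie here on the opposite strand and read ATTGG.
Hmgcs1 upstream window: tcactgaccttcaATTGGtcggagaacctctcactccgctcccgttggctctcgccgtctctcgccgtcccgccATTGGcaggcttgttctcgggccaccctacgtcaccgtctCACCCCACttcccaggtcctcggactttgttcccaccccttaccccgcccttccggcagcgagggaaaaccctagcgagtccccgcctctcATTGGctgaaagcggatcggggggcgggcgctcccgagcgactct

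Both strands were searched for 4 motifs, and no match overlapped another. CACCCCAC occurred once, beginning 136 bases before the start, and is found in 2.58% of the 32851 windows of the same length in the table. CCAAT occurred 3 times, with the match nearest to the gene beginning 45 bases before the start, and is found in 33.8% of windows. The GC box GGGCGG, a letter string bound by Sp1, occurred 2 times and is found in 32.7% of windows. The letters TGACG, bound by factors of the CREB family, occurred 1 time and is found in 17.8%. These matches describe letters only.

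The probe was bright on each of the 15 arrays. Its spot was well above background, unsaturated and free of outlier marks on all of them. Its median pixel was 422 to 4353 times the local background and 1.19% to 12.3% of the scanner's saturation value. The scanner software gave the signal the same error of 10% on all 15 arrays, at low and high signal alike. That error therefore does not describe the precision of each spot. Each array had 1 spot of the probe. For scale, 15 other probes were printed 20 times on each array, and their log2 signals had a median within-array SD of 0.07.

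Before scaling, the processed signal of Hmgcs1 at E12.5 was 26216, 29921 and 35313. At E14.5 it was 41063, 49557 and 45810, and at E17.5 it was 54283, 44404 and 62417. Neonatal livers gave 14538, 9723 and 13074. Adult livers gave 96601, 84395 and 67381. On this unscaled scale the 3 neonatal arrays were the lowest and the 3 adult arrays the highest of the 15.

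All further values are log2 signals minus the 75th percentile of the array's noncontrol probes, called normalized log2 signals here. Hmgcs1 had 7.41, 6.70 and 6.93 at E12.5, with a mean of 7.01 ± 0.36 (SD, n = 3 at each stage). At E14.5 it had 7.32, 7.36 and 7.34, with a mean of 7.34 ± 0.02. At E17.5 it had 7.55, 7.79 and 8.29, with a mean of 7.88 ± 0.38. The E14.5 arrays lay inside the range of E12.5, and the E17.5 arrays lay above both. Neonatal livers had 6.09, 5.43 and 5.76, with a mean of 5.76 ± 0.33. Adult livers had 9.22, 8.51 and 8.86, with a mean of 8.86 ± 0.36. No neonatal array overlapped any array of another stage, and no adult array did. At E14.5 only 1.33% of the features tested had a smaller SD than Hmgcs1, and at the other stages between 31.2% and 67.3% did.

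**Figure D1:**
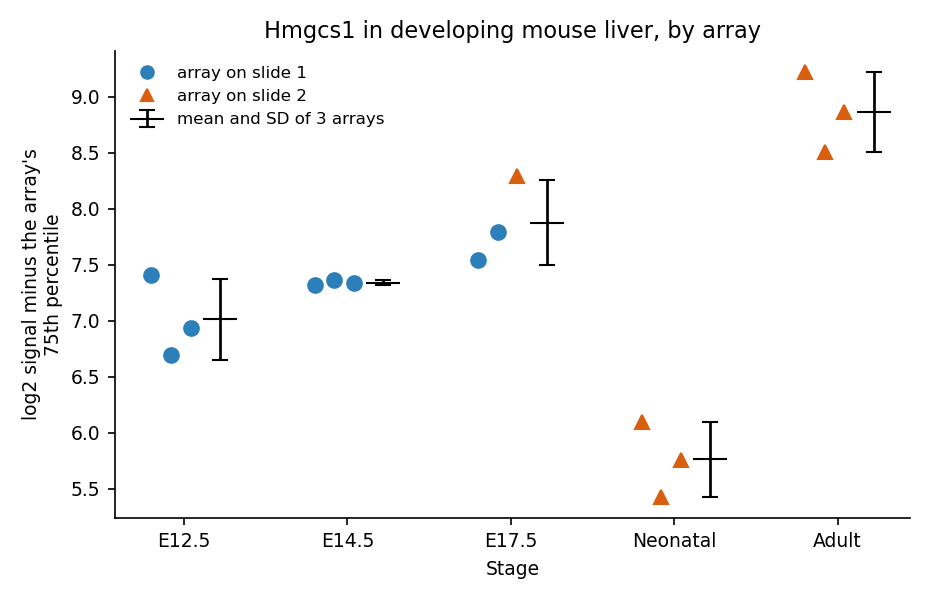
Normalized log2 signal of Hmgcs1 (vertical axis) on each of the 15 arrays by stage (horizontal axis), with the mean and SD of 3 arrays as bars. Marker and colour show the slide, a name used here for the arrays sharing a scan time. Neonatal arrays lie between 5.43 and 6.09 and adult arrays between 8.51 and 9.22, below and above all others, and E17.5 replicate 3, on slide 2, is the highest fetal array.

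A feature in a comparison was called at an adjusted p below 0.05 in limma, with Benjamini-Hochberg adjustment over 37359 features, each of which stood well above background in 1 stage or more with all 3 of its arrays. The moderated F test over the 5 stages gave Hmgcs1 an adjusted p of 8.48e-06, and 61.0% of all features were called by it. In order of mean level the stages ran adult, E17.5, E14.5, E12.5 and neonatal. Of the 4 neighbouring places in that order, E17.5 with E14.5 and E14.5 with E12.5 did not differ beyond their spread in the test. Adult with E17.5 and E12.5 with neonatal were called. They lost that call under 7 of 30 and 1 of 29 alternative settings, the slide as a block among those for adult with E17.5.

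The headers give 2 scan times, which divide the stages. Arrays with the same scan time are called 1 slide here, and the slide itself was not read from the headers. Slide 1 carried both earlier fetal stages and the first 2 replicates of E17.5. Slide 2 carried E17.5 replicate 3 with the neonatal and adult stages. E17.5 replicate 3 (8.29) was above E17.5 replicates 1 and 2 (7.55 and 7.79). Stage and slide can be separated only through that array. Values with the slide as a block therefore stand beside each comparison across slides, except E17.5 against E14.5. Within slide 2 the values set that array alone against 3 arrays, with the spread of the other stages assumed for it. E17.5 replicate 1 had 80.9% of its noncontrol spots well above background, against 50.9% to 62.9% on the other 14 arrays, and 55.8% of its negative-control spots, against at most 9.58% elsewhere. The scanner software's multiplicative detrending also went with the slides, applied on slide 2 apart from adult replicate 2 and not on slide 1, and its part in the differences was not tested.

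Between the fetal stages no difference of Hmgcs1 passed the test. E14.5 and E12.5 livers differed by 0.33 ± 0.28 on the log2 scale (SE; 95% interval −0.28 to 0.94; limma adjusted p = 0.661), a comparison in which 4.93% of features were called. E17.5 and E14.5 livers differed by 0.54 ± 0.28 (−0.07 to 1.15; adjusted p = 0.282), with 7.11% of features called. Over 30 alternatives, the slide as a block among them, the latter difference ran from 0.23 to 0.70 and was never called. The 95% intervals of these 2 comparisons reach from a small decrease to a 1.92-fold and a 2.21-fold higher level in the later stage.

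Over the whole fetal span, E17.5 livers were 0.86 ± 0.28 above E12.5 livers on the log2 scale, a ratio of 1.82 (95% interval 1.19 to 2.78), with no overlap between the arrays. The adjusted p of 0.0516 in limma lay just outside the threshold, and 17.0% of features were called. The call was made under 10 of 30 alternatives, among them quantile normalization (1.05, adjusted p = 0.00312) and the authors' value table (1.08, adjusted p = 0.00173). With the slide as a block, which here compares arrays of slide 1, the difference was 0.66 (adjusted p = 0.124).

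Around birth Hmgcs1 fell. Its normalized log2 signal was 6.09, 5.43 and 5.76 in neonatal livers, against 7.55, 7.79 and 8.29 in E17.5 livers, a change of −2.12 ± 0.28 or a 4.33-fold lower level (limma adjusted p = 0.000305; 18.1% of features called). By size this change stood at place 1374 of 37359 features. Of the 72 coding genes with a symbol 2 rose and 5 fell, Hmgcs1 among them. The fall was as large within slide 2, where the neonatal arrays stood against E17.5 replicate 3 (−2.53, adjusted p = 0.0144), and with the slide as a block (−2.53, adjusted p = 0.00167). It was called under all 30 alternatives tried, which spanned −2.53 to −1.91.

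Neonatal livers were also below the earlier fetal stages. The difference from E12.5 was −1.25 ± 0.28 (limma adjusted p = 0.0033), a 2.38-fold lower level, with 41.9% of features called. That from E14.5 was −1.58 ± 0.28 (adjusted p = 0.000662), a 2.99-fold lower level, with 43.0% of features called. Both comparisons lie across the slides. With the slide as a block the differences were −1.87 (adjusted p = 0.0163) and −2.20 (adjusted p = 0.00893). When E17.5 replicate 1 was left out of that blocked fit, the first was −1.75 and no longer called (adjusted p = 0.0529), whereas the second was −2.08 and was called (adjusted p = 0.0314).

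Between birth and 8 weeks Hmgcs1 rose. Adult livers had 9.22, 8.51 and 8.86, against 6.09, 5.43 and 5.76 in neonatal livers, a change of 3.10 ± 0.28 or an 8.59-fold higher level (95% interval 5.63 to 13.1; limma adjusted p = 1.91e-06). Both stages lay on slide 2. In this comparison 25.9% of features were called, and among the 72 coding genes with a symbol 13 rose and 10 fell. The change of Hmgcs1 was at place 1236 of all features by size. It was called under all 30 alternatives, which spanned 2.74 to 3.44.

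**Figure D2:**
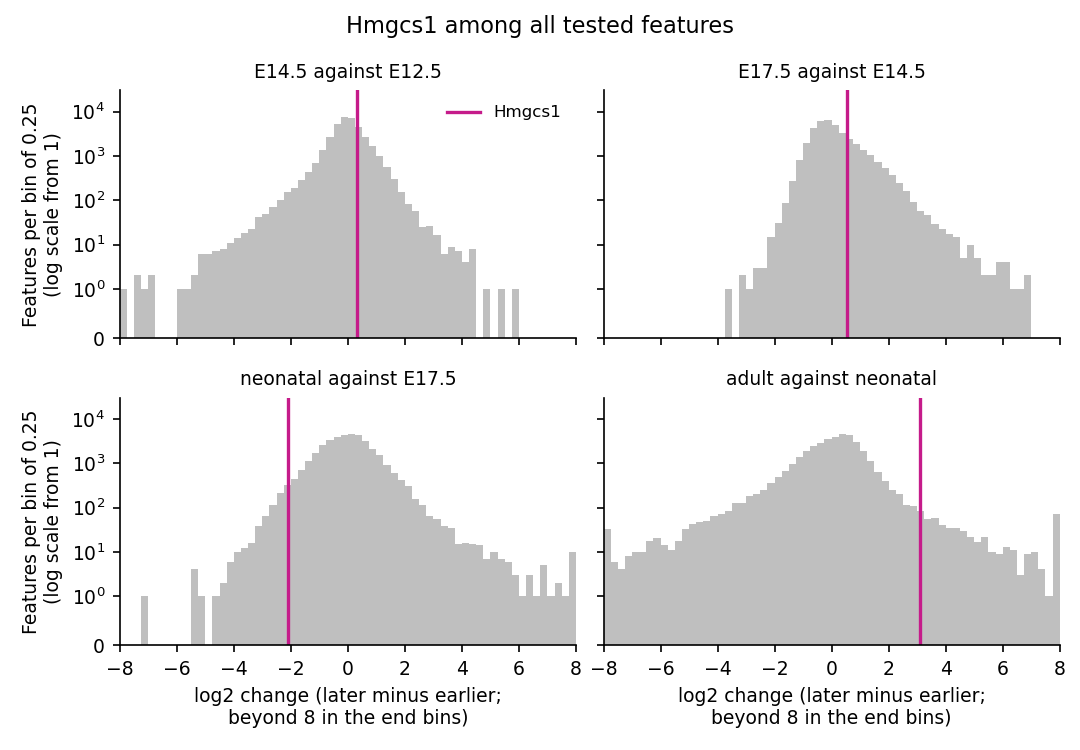
Number of features per bin of log2 change (vertical axis, log scale from 1) for the 4 steps between neighbouring stages, later minus earlier stage, over 37359 features, with changes beyond 8 in the end bins. The vertical line marks Hmgcs1, near the centre at 0.33 and 0.54 in the fetal steps and farther out at −2.12 around birth and 3.10 after it.

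Whether adult liver stood above fetal liver depended on how the slides were handled. Adult livers were 0.99 ± 0.28 above E17.5 livers on the log2 scale, a ratio of 1.98 (limma adjusted p = 0.0148; 35.4% of features called). Within slide 2, against E17.5 replicate 3 alone, the difference was 0.57 (adjusted p = 0.295), and with the slide as a block it was also 0.57 (adjusted p = 0.268). It also missed the threshold without E17.5 replicate 1 (0.82, adjusted p = 0.0569) and without adult replicate 1 (0.81, adjusted p = 0.0686). Against E14.5 livers the adult level was 1.52 ± 0.28 higher (adjusted p = 0.000503; 49.6% of features called), and 0.90 with the block (adjusted p = 0.16). Against E12.5 livers it was 1.85 ± 0.28 higher, a ratio of 3.61 (adjusted p = 9.86e-05; 50.8% of features called), and 1.23 with the block (adjusted p = 0.0572).

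**Figure D3:**
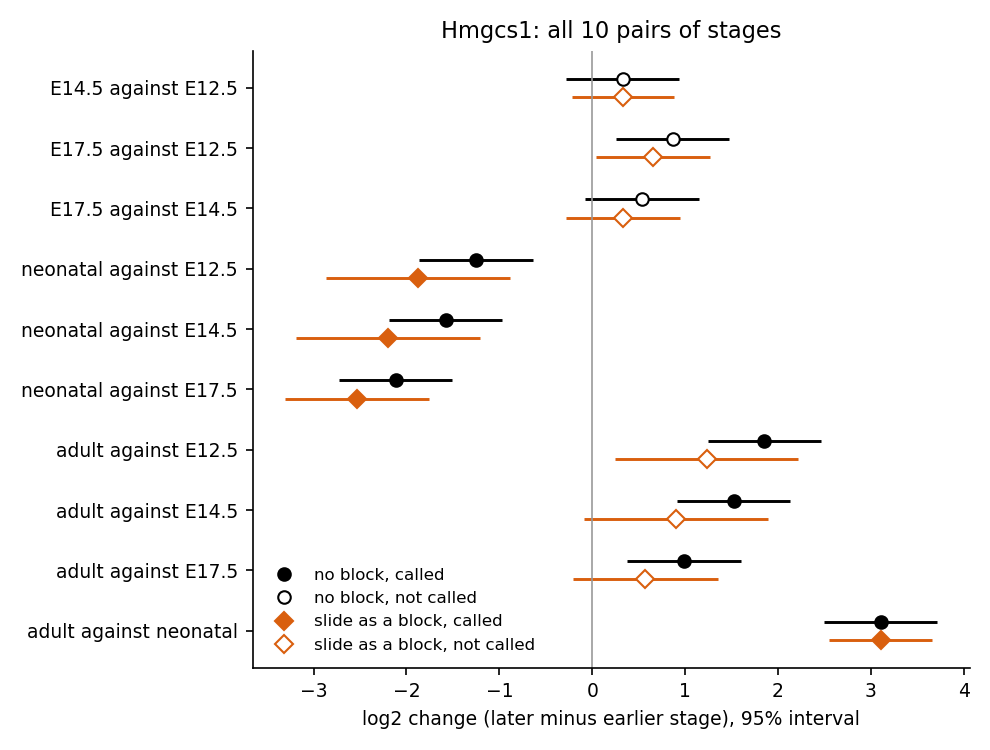
Log2 change of Hmgcs1 (horizontal axis, later minus earlier stage) with its 95% interval for all 10 pairs of stages, without a block (circles) and with the slide as a block (diamonds), with filled markers where the change was called. The falls to the neonatal stage and the rise after it are filled in both fits, whereas the 3 comparisons of adult with fetal liver are filled only without the block.

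**Figure D4:**
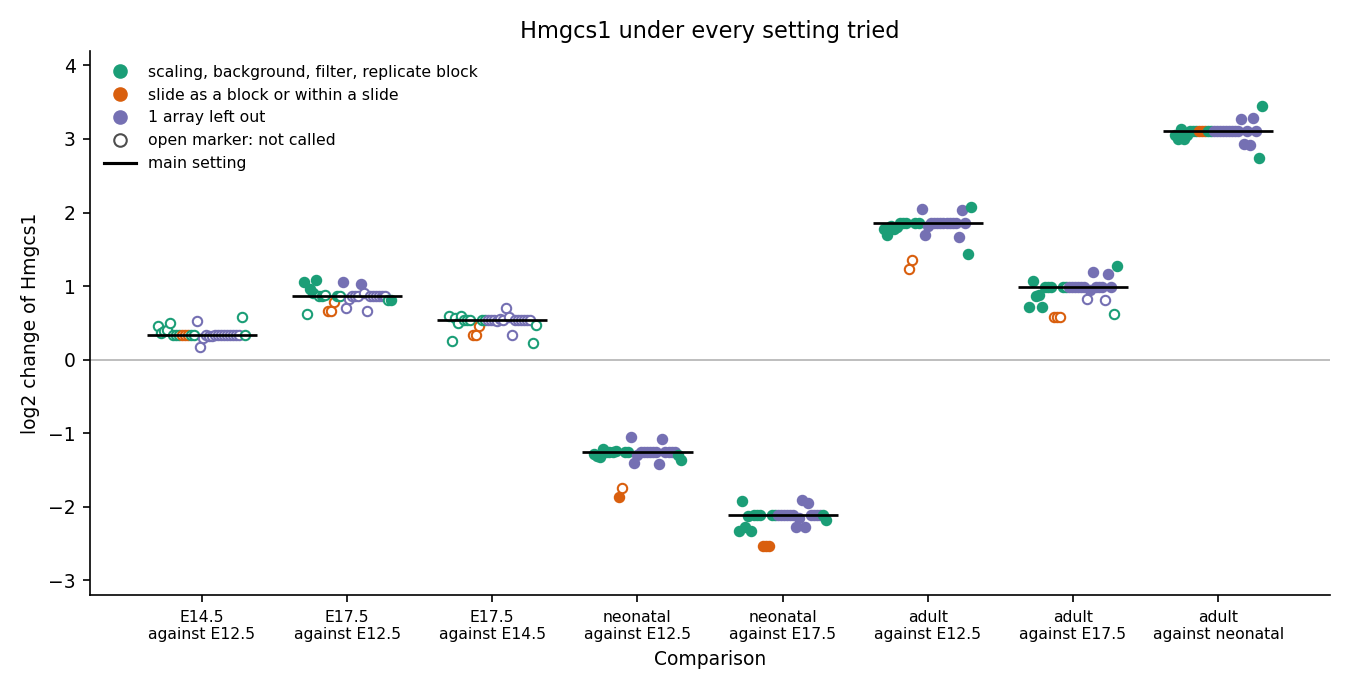
Log2 change of Hmgcs1 (vertical axis) in 8 comparisons (horizontal axis) under each setting tried, coloured by kind of setting, with the line at the main value and open markers where the change was not called. Neonatal against E17.5 stays between −2.53 and −1.91 and adult against neonatal between 2.74 and 3.44, and no comparison crosses 0.

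Of 22 genes listed for cholesterol synthesis, 1 was matched to a symbol on this array, Hmgcs1 itself. None of the 15 genes of sterol sensing and uptake, 7 of ketone body synthesis or 8 of bile acid synthesis was matched, so the pathway around Hmgcs1 was not analysed here. Of 13 commonly used reference genes 8 could be tested. In neonatal against E17.5 livers 0 of these 8 were called, against 18.1% of all features, and their log2 changes ran from −0.06 to 0.85, with a median of 0.25. In adult against neonatal livers they ran from −0.76 to 1.24, and 1 was called, against 25.9% of all features: B2m, the light chain of MHC class I molecules, which rose by 1.24 ± 0.32 (limma adjusted p = 0.0107). Gapdh, a glycolytic enzyme, had log2 differences of 0.17 and 0.30 in the same comparisons, and Actb, a cytoskeletal actin, of 0.22 and −0.19, and neither was called. Scaling the arrays on the 15 repeatedly printed probes, an alternative added after the data were seen, gave Hmgcs1 −2.17 around birth and 3.44 after it. Some of these 15 probes changed with stage themselves, so this is not a scale of stable genes. In adult against neonatal livers the log2 change was −2.66 for Tfrc, −1.57 for Tuba1b, −1.22 for Rpl13a and 1.24 for B2m.

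None of the 4 tested genes near Hmgcs1 on chromosome 13 was called around birth or after it. Of all features 18.1% and 25.9% were, and 4 genes are too few to set against these shares. In the RefSeq order of protein-coding genes, Ccl28, a mucosal chemokine, lies on 1 side of Hmgcs1, and Nim1k, a protein kinase, and Zfp131, a zinc finger protein, lie on the other. These neighbours were picked by position after the data had been received. Zfp131, well above background on all 15 arrays, averaged 5.31 ± 0.21 in neonatal livers, against 5.31 ± 0.55 in E17.5 livers, a difference of −0.01 ± 0.32 (limma adjusted p = 0.992), and 4.92 ± 0.34 in adult livers (adjusted p = 0.394 against neonatal). Ccl28 had a log2 difference of 0.48 ± 0.64 around birth (adjusted p = 0.631) and of 0.31 ± 0.64 after it (adjusted p = 0.748), with 1 to 3 arrays per stage well above background. Nim1k was well above background on 3 adult arrays, 1 array each at E12.5 and E17.5, and none at E14.5 or in neonatal liver. Tcstv1, farther along on the same side, had differences of 1.20 ± 0.62 around birth (adjusted p = 0.192) and −0.52 ± 0.62 after it (adjusted p = 0.557).

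Likeness to Hmgcs1 was measured as Pearson's r of normalized log2 signal over the 15 arrays, which share their slides, their scaling and the stages themselves. It is given as a description. Features named below for their r were picked over these same arrays, so their stage differences are given without a test. Over all other 37358 features the median r was 0.08, and over the 74 others with a symbol it was 0.01. The 5 named genes most like Hmgcs1 were Ccl21b (r = 0.741), Gm13304 (0.737), Ccl21c (0.71), Vamp7 (0.703) and Gm21953 (0.649). Among all 37358 features, most of them without a symbol, they stood only at places 605, 644, 920, 979 and 1593 by r. Ccl21b and Ccl21c encode near-identical lymphoid chemokines, so their probes cannot be taken as separate genes. The Gm13304 probe had 1.55, 2.99 and 3.20 on the adult arrays, close to the 1.41, 2.76 and 3.19 of Ccl21b. Whether it reads a separate transcript was not tested.

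Ccl21b averaged 0.06 ± 0.43 in neonatal livers, against 1.04 ± 0.20 in E17.5 livers, and 2.45 ± 0.92 in adult livers. Its log2 difference was −0.98 ± 0.38 (SE) around birth and 2.39 ± 0.38 after it. Its deviations from the stage means correlated with those of Hmgcs1 at −0.31. For Gm13304, Ccl21c, Vamp7 and Gm21953 that r was −0.13, 0.01, 0.73 and 0.62. For the chromosome 13 neighbours Nim1k, Ccl28, Tcstv1 and Zfp131 it was 0.42, 0.40, 0.60 and 0.72. Their r over the 15 arrays was 0.39, 0.125, 0.05 and −0.22, so a high r within stages was not particular to genes like Hmgcs1. Vamp7, a vesicle fusion protein, averaged 4.28 ± 0.23 in neonatal livers, against 4.30 ± 0.54 in E17.5 livers. It was 1.44 ± 0.33 (SE) higher in adult than in neonatal livers.

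**Figure D5:**
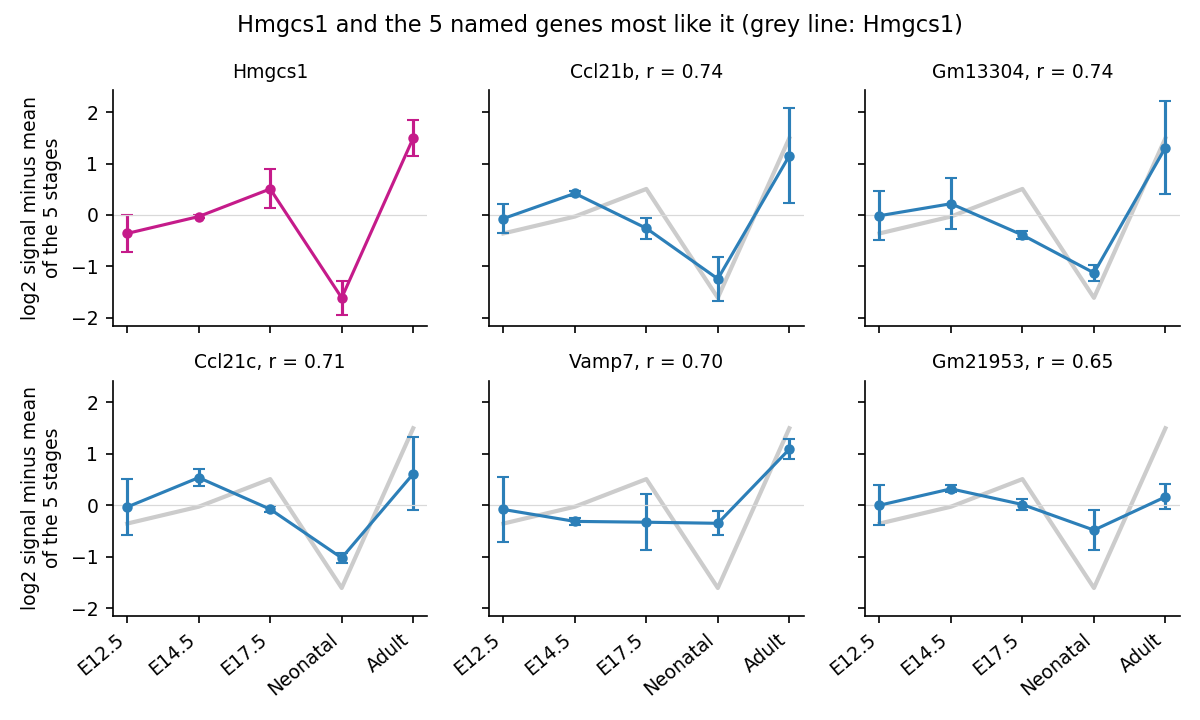
Stage means with SD (n = 3) of normalized log2 signal, each minus the mean of its 5 stage means (vertical axis), by stage (horizontal axis), for Hmgcs1 and the 5 named genes with the highest r over 15 arrays, with Hmgcs1 repeated as a grey line. All 5 probes have their lowest mean in neonatal liver, that of Vamp7 hardly below its E17.5 mean. All but that of Gm21953 have their highest mean in adult liver.

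Least like Hmgcs1 among named genes were Hsp90ab1, a cytosolic chaperone (r = −0.684), Ppp2r3d, a phosphatase subunit gene with a noncoding accession here (−0.675), and Gusb, a lysosomal glucuronidase (−0.564). Hsp90ab1 averaged 6.86 ± 0.21 in neonatal livers, against 6.01 ± 0.29 in E17.5 livers, a difference of 0.85 ± 0.34 (SE). Of the probes named for lincRNAs or ultraconserved elements, 2 lincRNA exon probes and 1 probe named for a human lincRNA were most like Hmgcs1, with r of 0.877, 0.856 and 0.856. The first of them averaged −0.84 ± 0.20 in neonatal livers, against −0.13 ± 0.22 in E17.5 livers. In adult livers it averaged 1.31 ± 0.52, which was 2.16 ± 0.32 (SE) above neonatal livers.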

How the data were processed

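RNA from 15 mouse liver samples of 5 stages was measured on Agilent arrays in 1 colour. Per the file headers, the deposited intensity values come from Feature Extraction 11.0.1.1 on a probe grid of mm9, background-subtracted on a linear scale with no scaling between arrays; the submitters' processing notes name version 10.7.3.1. The headers also show that multiplicative detrending was applied on the slide 2 arrays other than adult replicate 2, and on none of slide 1. For 29158 probes the authors also deposited log2 values, whose scaling is not given in the sources used here. Their column medians, for replicates 1 to 3, were 7.85, 7.88 and 7.88 at E12.5, 7.89 on all 3 arrays of E14.5, then 7.88, 7.89 and 7.87 for E17.5 livers, 7.85, 7.84 and 7.85 for neonatal livers and 7.80, 7.81 and 7.80 in adult livers. Per the labels' protocols, rRNA was removed and cRNA was made by random priming.

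Control spots, negative-control probes and outlier spots were left out, spots of a probe were averaged on the log2 scale, and each array's 75th percentile was subtracted. RefSeq accessions were matched without versions to GRCm38.p6 gene tables, which named 116 of 123 probes; for symbols with several probes the brightest was used. Stage means of all 37359 features were fitted with limma 3.58.1 (lmFit, eBayes, two-sided) in R 4.3.3 over 15 arrays, checked on simulated data. Precision is limited by 3 arrays per stage. Alternatives covered scaling, background, filters, slide, replicate number and each array left out. Normexp used the median spot signal, since no mean signal column is in the files. The 5 genes of highest and 3 of lowest r, and 3 lincRNA or ultraconserved probes of highest r, were named by rule. The gene, lists and tests were chosen with earlier results of these data known. Replicate numbers were checked as pairs: in 0 of 10 comparisons did all 3 same-numbered pairs deviate together at r over 0.1.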

Additional observations from a re-analysis of the deposited data

How the results depend on the processing

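Across 31 other settings, 324 values of Hmgcs1 were computed and none changed direction; 302 stayed on the same side of the threshold, 12 lost a call and 10 gained one. Neonatal against E17.5 and against E14.5, adult against neonatal and the test over all 5 stages were called under each alternative, and E14.5 against E12.5 and E17.5 against E14.5 under none. E17.5 against E12.5 gained a call with quantile normalization (1.05), the 75th percentile over probes well above background on all arrays (0.95), normexp (0.90), the authors' table (1.08), only probes well above background on all arrays (0.86) and, added after the data were seen, scaling on 15 repeated probes (0.81). With the replicate number as a block it was 0.86 (limma adjusted p = 0.047), and that block changed no other call; the labels give no pairing behind the numbers, whose r ran from −0.24 to 0.48. With 1 array left out it ran from 0.66 to 1.06. Calls were lost with the slide as a block for adult against E12.5 (1.23), E14.5 (0.90) and E17.5 (0.57, also within slide 2), and without E17.5 replicate 1 in that blocked fit for adult against E12.5 (1.35), E14.5 (1.03) and E17.5 (0.57) and neonatal against E12.5 (−1.75). Adult against E17.5 was also lost with only those 2 stages fitted (0.99) and with no scaling, added later (0.62), and ran from 0.81 to 1.19 with 1 array left out. The cause of these changes was not tested.

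The share of all features called moved by over 1.5 times in each comparison; over the alternatives it ran from 1.80% to 7.84% for E14.5 against E12.5, 5.58% to 20.8% for E17.5 against E12.5, 3.04% to 9.68% for E17.5 against E14.5, 10.7% to 47.3%, 8.18% to 61.6% and 5.88% to 35.6% for neonatal against E12.5, E14.5 and E17.5, and 26.9% to 55.7%, 23.8% to 60.7%, 19.8% to 42.4% and 12.8% to 35.2% for adult against E12.5, E14.5, E17.5 and neonatal. Without scaling the median change of all features was −0.66 in adult against E14.5, the largest such shift, against 0.01 in the main setting. Hmgcs1 was well above background and unsaturated on all 15 arrays.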

Other observations

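Of the 37358 other features tested, 34 (0.091%) had an r of at least 0.9 with Hmgcs1 over the 15 arrays, and 25 had an r of −0.9 or lower. All 34 carry only the maker's ID, which the files do not pair with a gene, as do 33708 of the 37358 features. The highest, ASMM9PARTA013393 (r = 0.978), averaged 3.60 ± 0.06 in neonatal livers, against 6.82 ± 0.38 in E17.5 livers, and 7.92 ± 0.19 in adult livers (SD, n = 3 each). It was picked for its r over these same arrays, so its stage pattern is a description and no test is given.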
